A study of Mus musculus with 7 samples.

Results

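The genes described here are 40 genes of glucose handling in mouse embryonic fibroblasts: the glucose transporters, the enzymes of each glycolytic step from hexokinase to lactate dehydrogenase, the lactate exporters, the genes that control pyruvate entry into the mitochondrion, and the enzymes that build and break glycogen. They were chosen by gene symbol from a table of 49382 gene rows, each symbol was on 1 row, and all 40 were among the 12909 genes that averaged 2 TPM or more across the 7 libraries. TPM is a relative level of transcripts, scaled for transcript length and library size. The cells were wild-type fibroblasts (MEFs) from embryos of E13.5 to E14.4, after removal of the head and red tissue, sorted for purity by the study's general culture methods, used at passages 3 to 7 and treated after a night in culture. The libraries were an untreated control (culture time not stated), hypoxia (0.1% oxygen for 10 h), glucose depletion (10 h without glucose), glutamine depletion (10 h without glutamine), ER stress (1 µM thapsigargin, an inhibitor of the calcium pump of the endoplasmic reticulum, for 10 h), oxidative stress (10 µM NaAsO2, sodium arsenite, for 3 h) and osmotic stress (100 mM added NaCl for 3 h). The medium in which the cells were grown held 1 mM pyruvate, and whether the glucose-free medium also held it was not stated. The study asked how fibroblasts respond to conditions of the environment that could limit the size of a cell population.

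Each condition was 1 library, so no value below has an error, no test could be made, and a difference cannot be set against the spread between cultures. Changes are given as log2(TPM + 1) of the condition minus the same of the control library, and a gene is said to have risen or fallen where this difference passed 1 in size, a 2-fold change. Values given as a change, a rise or a fall, also those in parentheses after a condition or gene, are these log2 differences, and values in TPM are levels. The same control library stands in all 6 comparisons, and the 2 conditions of 3 h and the 4 of 10 h are set side by side without being matched in time. The 8 fibroblast markers summed to between 12738 and 15769 TPM in 6 libraries and to 6417 TPM in ER stress. The macrophage genes Ptprc, Adgre1 and Itgam were at most 0.944 TPM in any library. The other macrophage genes were higher, with Csf1r at up to 2.25 TPM, Lyz2 at up to 2.23 and Cd68 between 5.26 and 9.77. The summed markers of macrophages, skeletal muscle, endothelium and epithelium were at most 14.6 TPM in any library. Among the neuronal markers Snap25 was at 0 throughout, and Stmn2 made up nearly all of a sum of 20.4 to 27.1 TPM. Mitochondrially encoded transcripts took between 5.09% and 9.25% of TPM, most in oxidative stress. Because these are bulk RNA samples, fewer cells of a kind and less RNA per cell cannot be told apart.

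Glycolysis splits glucose into pyruvate with a small gain of ATP, and lactate dehydrogenase turns pyruvate into lactate so that the pathway can run without oxygen. Many steps can be carried out by several isozymes, each from its own gene, which differ in their kinetics, regulation and tissue. In low oxygen, hypoxia-inducible factors (HIF) are known to raise transcription of many of these genes through a response element whose core reads ACGTG or GCGTG. Glycogen, a branched store of glucose, accumulates in many cultured cells under hypoxia.

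To show what lies in front of the genes that the results turn on, stretches before the transcription start are given here for 7 genes that rose in hypoxia and for Slc16a1 and Ldhb, whose partner isozymes rose while they did not. The sequences are from RefSeq (GRCm38.p6) and run 5′ to 3′ along the strand of the gene. Capitals mark the HIF core ACGTG or GCGTG on either strand, so that CACGT and CACGC are matches on the reverse strand and CACGTG (an E-box) is a match on both. The Slc16a3 and Pfkfb3 stretches were kept to 30 bases. The stretches do not all begin and end at the same distance from the start, and each one printed holds a core.
Slc16a3, chr11:120949037-120949066, plus strand: gtgACGTGcgcgggggACGTGccgcgcgac
Slc16a1, chr3:104638414-104638563, plus strand: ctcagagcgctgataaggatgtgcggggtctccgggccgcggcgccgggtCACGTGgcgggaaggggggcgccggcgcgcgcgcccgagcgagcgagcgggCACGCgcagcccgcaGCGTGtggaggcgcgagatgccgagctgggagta
Pdk1, first of 2 starts, chr2:71873074-71873223, plus strand: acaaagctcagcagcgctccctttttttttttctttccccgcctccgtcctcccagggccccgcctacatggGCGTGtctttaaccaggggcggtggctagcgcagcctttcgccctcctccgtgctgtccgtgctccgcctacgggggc
Pfkl, chr10:78009808-78009957, minus strand: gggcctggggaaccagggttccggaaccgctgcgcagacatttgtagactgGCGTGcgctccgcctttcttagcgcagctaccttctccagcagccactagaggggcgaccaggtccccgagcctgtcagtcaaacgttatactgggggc
Pfkfb3, upstream of 2 starts, chr2:11553974-11554003, minus strand: tcctccgcgccgtgACGTGccaagctgtga
Pfkfb3, downstream start, chr2:11502127-11502156, minus strand: ccacccttctctcCACGTGaaagggggctg
Slc2a1, chr4:119108595-119108714, plus strand: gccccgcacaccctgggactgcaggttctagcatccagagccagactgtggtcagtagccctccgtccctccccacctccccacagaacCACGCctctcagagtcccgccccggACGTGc
Pgk1, chrX:106186950-106187099, plus strand: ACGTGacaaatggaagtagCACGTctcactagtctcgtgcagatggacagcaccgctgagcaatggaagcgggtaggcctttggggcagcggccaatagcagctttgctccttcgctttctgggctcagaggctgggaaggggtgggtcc
Ldha, first of 2 starts, chr7:46845654-46845803, plus strand: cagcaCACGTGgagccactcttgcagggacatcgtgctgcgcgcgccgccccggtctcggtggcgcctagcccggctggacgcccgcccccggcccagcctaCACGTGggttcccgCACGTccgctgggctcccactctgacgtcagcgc
Ldhb, chr6:142507958-142508107, minus strand: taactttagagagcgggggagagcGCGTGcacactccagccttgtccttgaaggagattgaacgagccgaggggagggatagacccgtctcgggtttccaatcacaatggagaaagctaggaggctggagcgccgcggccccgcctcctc
The Slc16a3 stretch held 2 ACGTG cores on the sense strand, 27 and 14 bases before the start. Those of Pdk1, Pfkl and Ldhb each held 1 GCGTG core. The Ldha stretch held 2 CACGTG sites and 1 more ACGTG core on the reverse strand, and the Slc16a1 stretch held 1 CACGTG site and 2 GCGTG cores. By the annotation (GENCODE M21, GRCm38), the stretches of Slc16a1, Pdk1, Pgk1 and Ldhb lay outside genes, those of Pfkl, Ldha and the downstream Pfkfb3 start lay in introns of other transcripts of the same gene, and those of Slc2a1, Slc16a3 and the upstream Pfkfb3 start overlapped 4, 14 and 30 exonic bases.

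Over the 250 bases before each start, 38 of the 40 genes had a sequence, with 59 starts between them. A core of either kind was present on either strand before 43 of the 59 starts, or 72.9%, against 38.6% of all 32851 starts in the reference table. These reference starts were not limited to genes expressed in these cells, so the shares come from unlike sets. A share for the starts of expressed genes alone was not computed. Between the genes that rose in hypoxia and those that did not, the shares were close: 74.2% of 31 starts and 71.4% of 28 starts. Counted by gene, a core was present for 17 of the 21 risen genes with a sequence and for 16 of the 17 others. The core ACGTG alone was before 38.7% and 35.7% of these starts, and before 16.6% of all starts. CACGTG, which contains ACGTG, was before 6 of the 59 starts (10.2%) and 6.02% of all starts. The carbohydrate response element, in its perfect form of 2 E-boxes CACGTG with 5 bases between them, was before none of the member starts and none of the starts in the table. A match of 5 letters is a description of the sequence and not a binding site, and the wider gene body and distal elements were not searched.

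In hypoxia 22 of the 40 genes rose and none fell. Of all 12909 genes 3.57% rose and 2.64% fell. The median change of the 40 genes was 1.47 on the log2 scale, beside -0.05 over all genes. The hypoxia library held the highest level of 28 of the 40 genes, against 15.7% of all genes. In 20 of the 40 genes the hypoxia level was more than 2-fold above the highest of the other 6 libraries. This held for 140 (1.08%) of all genes. The control is among these 6 libraries, so only genes that rose could meet this rule. Of the 22 genes that rose, Hk2 and Pkm did not meet it, and of all genes 461 rose.

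**Figure D1:**
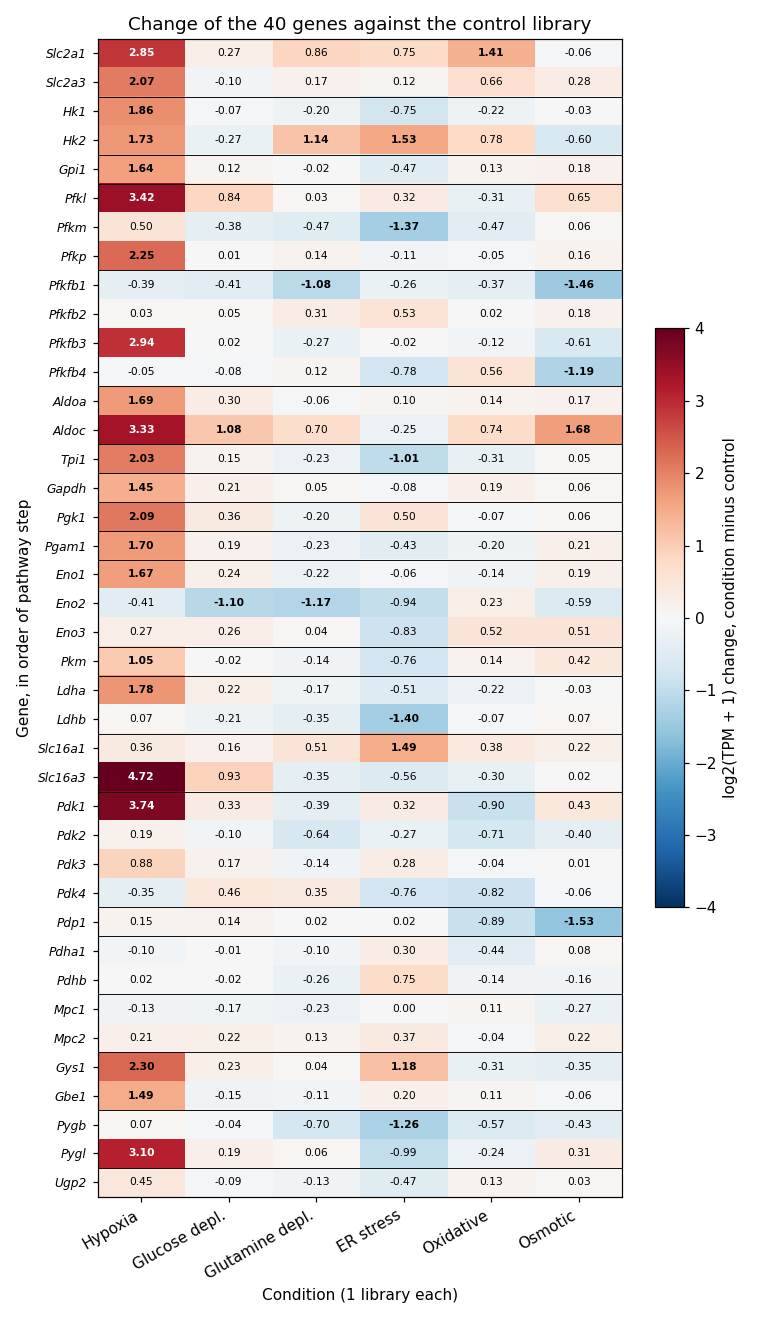
Change of each of the 40 genes (vertical, in order of pathway step, thin lines between steps) in each of the 6 conditions (horizontal, 1 library each), as the log2(TPM + 1) difference from the control library, printed in each cell with values past 1 in size in bold and the colour scale ending at 4 in size. The 22 bold values of the hypoxia column are all positive and run from 1.05 for Pkm to 4.72 for Slc16a3, while the other 5 columns hold 17 bold values of 200.

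Outside hypoxia, 17 of the 200 pairs of a gene and a condition passed 2-fold, 7 up and 10 down. Glucose depletion had 1 gene up and 1 down, beside 1.83% and 2.41% of all genes. Glutamine depletion had 1 up and 2 down, beside 3.21% in each direction. ER stress had 3 up and 4 down, beside 8.60% and 11.0%. Of these 5 conditions ER stress had the most genes past 2-fold, among the 40 as among all genes. Oxidative stress had 1 up and none down, beside 3.94% and 4.85%. Osmotic stress had 1 up and 3 down, beside 3.08% and 8.76%. In these 5 conditions every count lay within 2 genes of the number that the share of all genes gives among 40. When 5 TPM in place of 1 was added before the logarithm, 9 of the 17 were short of 2-fold: Hk2 in glutamine depletion (0.98), Tpi1 in ER stress, Eno2 in glucose and glutamine depletion (-0.93 and -0.98), Aldoc in glucose depletion and osmotic stress (0.47 and 0.82) and the 3 falls of Pfkfb1 and Pfkfb4. Against the median of the other 6 libraries 7 of the 17 were short of 2-fold: Hk2 (0.75), Pfkfb1 (-0.70) and Eno2 (-0.67) in glutamine depletion, Eno2 (-0.60) and Aldoc (0.36) in glucose depletion, Aldoc in osmotic stress (0.96) and Slc2a1 in oxidative stress (0.90). The medians of the 40 genes were 0.13, -0.12, -0.09, -0.07 and 0.06 in the same order of conditions, and those of all genes were -0.02, -0.09, 0, -0.16 and -0.12. In total 10 of the 40 genes passed 2-fold in no condition, 17 passed it in hypoxia alone, and 1, Tpi1, rose in one condition and fell in another.

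**Figure D2:**
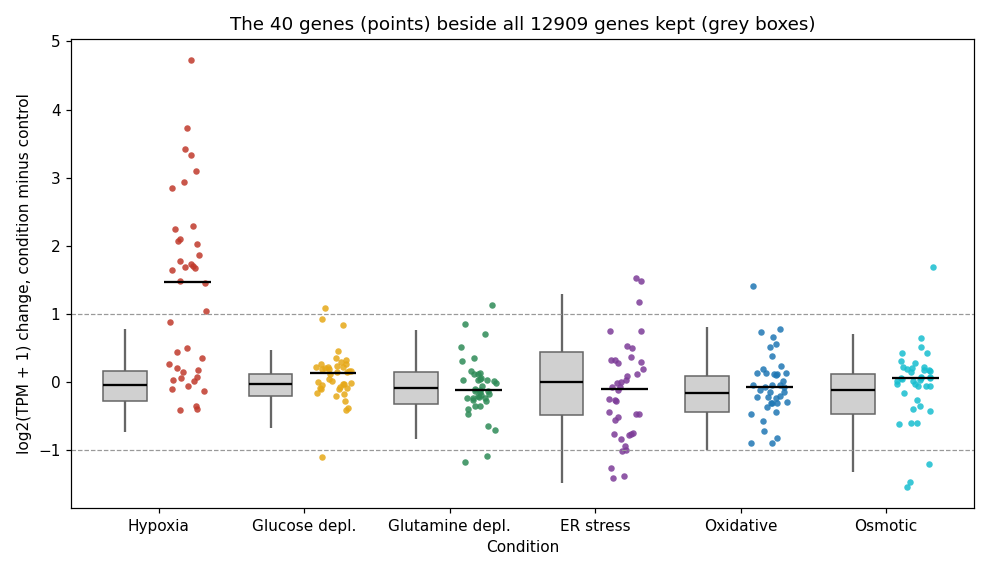
Change of the 40 genes (coloured points, black line at the median) beside all 12909 genes kept (grey boxes from the 25th to the 75th percentile with the median as a black line, whiskers from the 5th to the 95th percentile) in each condition, as the log2(TPM + 1) difference from the control library. Dashed lines mark 2-fold; in hypoxia 22 points lie above the upper line and none below the lower one, and in the other conditions at most 3 points lie above it.

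Both glucose transporters rose in hypoxia, and Slc2a1 also rose in oxidative stress against the control library, though not against the median of the other 6 libraries (0.90). Slc2a1 encodes the widespread facilitative glucose transporter of cultured fibroblasts. In descending order, Slc2a1 stood at 428 TPM under hypoxia, 157 under oxidative stress, 107 under glutamine depletion, 99.2 under ER stress, 70.5 under glucose depletion, 58.4 in the control library and 55.9 under osmotic stress. Its rise reached 2.85 in hypoxia and 1.41 in oxidative stress after 3 h, while the differences in glutamine depletion (0.86) and ER stress (0.75) were short of 2-fold. In glucose depletion itself the log2 change of Slc2a1 was 0.27. Slc2a3, the high-affinity transporter best known from neurons, was at 3.39 TPM in the control library, 17.4 in hypoxia, 3.08 in glucose depletion, 3.93 in glutamine depletion, 3.76 in ER stress, 5.92 in oxidative stress and 4.34 in osmotic stress. It was thus low in every library, rose only in hypoxia (2.07), and made up between 3.55% and 7.21% of the TPM of the pair.

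Hexokinase traps glucose in the cell by phosphorylation, and its isozymes Hk1 and Hk2 both bind the outer mitochondrial membrane. Hk1 was at 60.4 TPM in the control library, 222 in hypoxia, 57.3 in glucose depletion, 52.4 in glutamine depletion, 35.5 in ER stress, 51.9 in oxidative stress and 59.2 in osmotic stress. For Hk2, the inducible isozyme of muscle, fat and tumor cells, the values were 16.2 TPM in the control library, 56.1 in hypoxia, 13.3 in glucose depletion, 36.9 in glutamine depletion, 48.9 in ER stress, 28.6 in oxidative stress and 10.4 in osmotic stress. Both rose in hypoxia, by 1.86 and 1.73, and the Hk2 share of the summed level was 21.2% in the control and 20.1% in hypoxia. The make-up of the step differed in other libraries. Hk2 also rose in ER stress (1.53) and glutamine depletion (1.14), where the log2 changes of Hk1 were -0.75 and -0.20, and its share was 57.9% and 41.3%. ER stress was the only library with more Hk2 than Hk1, and the summed level of the step there, 84.4 TPM, was close to the 76.6 TPM of the control. Glucose phosphate isomerase, the next enzyme, has the single gene Gpi1, which was at 368 TPM in the control library, 1149 in hypoxia, 401 in glucose depletion, 363 in glutamine depletion, 264 in ER stress, 403 in oxidative stress and 416 in osmotic stress. Hypoxia stood apart from the other 6 libraries, with a change of 1.64.

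Phosphofructokinase catalyses the committed step, as tetramers of the subunits Pfkl, Pfkm and Pfkp, first described in liver, muscle and platelets. Pfkl was at 25.8 TPM in the control library, 287 in hypoxia, 47.1 in glucose depletion, 26.5 in glutamine depletion, 32.5 in ER stress, 20.6 in oxidative stress and 41.1 in osmotic stress. The values of Pfkp were 36.4 TPM in the control library, 177 in hypoxia, 36.5 in glucose depletion, 40.04 in glutamine depletion, 33.6 in ER stress, 35.1 in oxidative stress and 40.6 in osmotic stress. Pfkm, in contrast, was at 19.6 TPM in the control library, 28.1 in hypoxia, 14.8 in glucose depletion, 13.8 in glutamine depletion, 6.96 in ER stress, 13.9 in oxidative stress and 20.4 in osmotic stress. In hypoxia Pfkl rose by 3.42 and Pfkp by 2.25, while Pfkm stood 0.50 above the control. Pfkl went from 31.6% of the summed phosphofructokinase level to 58.3% and Pfkm from 23.9% to 5.71%, and the sum went from 81.8 to 492 TPM. After hypoxia, Pfkl was highest in glucose depletion (0.84) and osmotic stress (0.65), both short of 2-fold, and Pfkm fell in ER stress (-1.37).

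The bifunctional enzymes of the Pfkfb family set the level of the allosteric activator of phosphofructokinase, and Pfkfb3, with the highest ratio of kinase to phosphatase activity, favours glycolysis most. Pfkfb3 was at 10.4 TPM in the control library, 86.4 in hypoxia, 10.5 in glucose depletion, 8.46 in glutamine depletion, 10.3 in ER stress, 9.52 in oxidative stress and 6.48 in osmotic stress. Only the hypoxia library was high, with a change of 2.94, and Pfkfb3 made up 82.98% of the family there against 34.6% in the control. Pfkfb4 was at 5.75 TPM in the control library, 5.52 in hypoxia, 5.39 in glucose depletion, 6.34 in glutamine depletion, 2.94 in ER stress, 8.93 in oxidative stress and 1.95 in osmotic stress. Pfkfb1, the liver and muscle gene, was at 7.202 TPM in the control library, 5.26 in hypoxia, 5.16 in glucose depletion, 2.89 in glutamine depletion, 5.85 in ER stress, 5.35 in oxidative stress and 1.97 in osmotic stress. The remaining gene, Pfkfb2, was at 6.76 TPM in the control library, 6.94 in hypoxia, 7.04 in glucose depletion, 8.62 in glutamine depletion, 10.2 in ER stress, 6.87 in oxidative stress and 7.78 in osmotic stress. None of these 3 rose in hypoxia, where their changes lay between -0.39 and 0.03, although Pfkfb4 is often named with the HIF targets. Osmotic stress was the lowest library for both Pfkfb1 (-1.46) and Pfkfb4 (-1.19), and Pfkfb1 also fell in glutamine depletion (-1.08). These are low levels, under 9 TPM in every library, and with 5 TPM added the 3 differences became -0.81, -0.63 and -0.63.

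From aldolase to pyruvate kinase each step was dominated by 1 abundant gene. Aldolase A (Aldoa), which splits the hexose into trioses, was at 726 TPM in the control library, 2349 in hypoxia, 895 in glucose depletion, 697 in glutamine depletion, 775 in ER stress, 798 in oxidative stress and 816 in osmotic stress. Triosephosphate isomerase (Tpi1) was at 373 TPM in the control library, 1529.6 in hypoxia, 413 in glucose depletion, 317 in glutamine depletion, 184 in ER stress, 301 in oxidative stress and 387 in osmotic stress. In both, hypoxia was the highest library, 1.39 and 1.89 above the next highest on the log2 scale, with changes against the control of 1.69 and 2.03, and Tpi1 was lowest in ER stress, with a change of -1.01 just past 2-fold. Gapdh, which oxidises the triose and is the most abundant of the 40 genes, shares reads with near-identical pseudogene copies, as does Pgk1, and was at 2221 TPM in the control library, 6067 in hypoxia, 2563 in glucose depletion, 2297 in glutamine depletion, 2105 in ER stress, 2539 in oxidative stress and 2317 in osmotic stress. Phosphoglycerate kinase (Pgk1), the first ATP-forming step, was at 291 TPM in the control library, 1244 in hypoxia, 372 in glucose depletion, 254 in glutamine depletion, 412 in ER stress, 276 in oxidative stress and 303 in osmotic stress. Phosphoglycerate mutase (Pgam1) was at 382 TPM in the control library, 1241 in hypoxia, 434 in glucose depletion, 324 in glutamine depletion, 282 in ER stress, 332 in oxidative stress and 441 in osmotic stress. Again the other 6 libraries lay well below hypoxia, where the changes were 1.45, 2.09 and 1.70. Enolase is encoded mainly by Eno1, which was at 747 TPM in the control library, 2382 in hypoxia, 883 in glucose depletion, 641 in glutamine depletion, 714 in ER stress, 677 in oxidative stress and 851 in osmotic stress. Pyruvate kinase (Pkm, both splice forms summed) was at 1180.2 TPM in the control library, 2438 in hypoxia, 1162 in glucose depletion, 1069 in glutamine depletion, 698 in ER stress, 1297 in oxidative stress and 1582 in osmotic stress. Pkm had the smallest rise of the 22, 1.05, and its second highest library was osmotic stress. Lactate dehydrogenase A (Ldha), which favours the making of lactate, was at 692 TPM in the control library, 2381 in hypoxia, 807 in glucose depletion, 613 in glutamine depletion, 485 in ER stress, 592 in oxidative stress and 679.7 in osmotic stress. Its change in hypoxia was 1.78, and the 2 genes that mark the pathway, Slc2a1 and Ldha, were thus both expressed in every library and highest in hypoxia.

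Summed over Gpi1, Aldoa, Tpi1, Gapdh, Pgk1, Pgam1, Eno1, Pkm and Ldha, the 9 abundant genes took 0.698% of all TPM in the control library and 2.08% in hypoxia, a ratio of 2.98. The ratio of TPM to control lay between 2.07 for Pkm and 4.28 for Pgk1 across the 9 genes, and the same sum was between 0.848 (ER stress) and 1.14 (glucose depletion) times the control in the other conditions. Removal of glucose for 10 h thus left these 9 genes at between 0.984 and 1.28 times the control level.

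**Figure D3:**
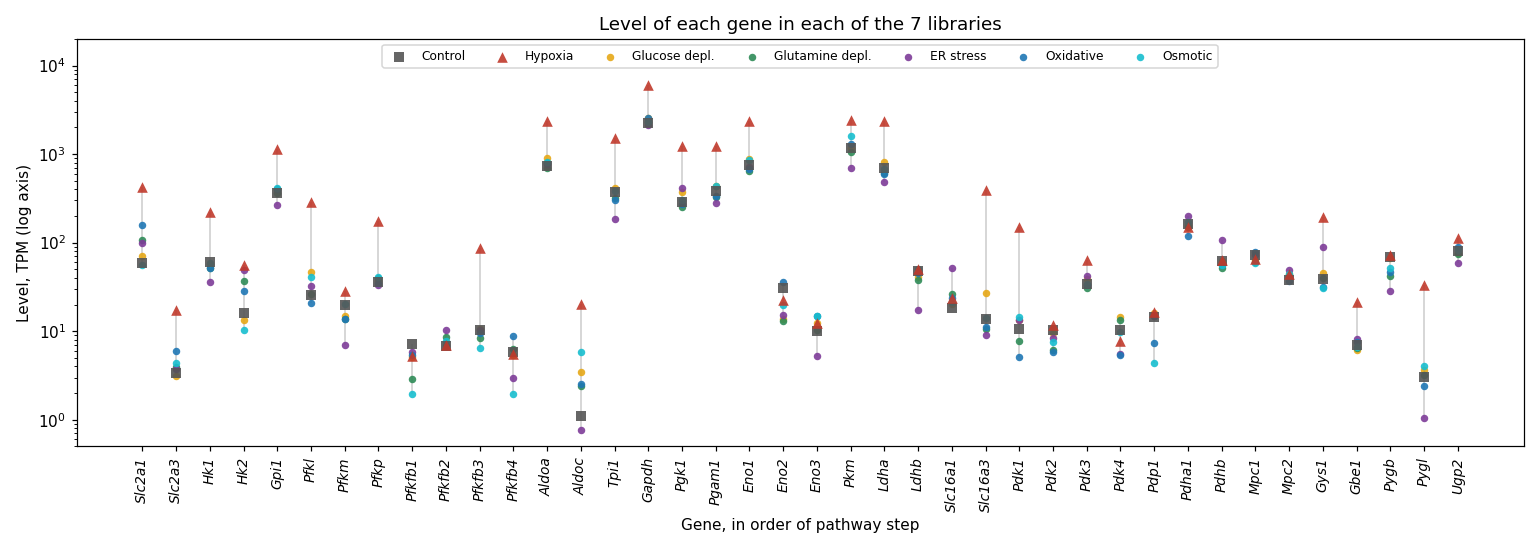
Level of each of the 40 genes in each of the 7 libraries in TPM on a log axis (vertical), with genes in order of pathway step (horizontal), squares for the control, triangles for hypoxia, circles for the other conditions and a grey line from the lowest to the highest library. The hypoxia triangle is at the top for 28 genes, and from Gpi1 to Ldha the abundant enzymes lie between 184 and 6067 TPM.

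The minor isozymes of these steps did not follow as a group. Aldoc, the aldolase of brain, was at 1.101 TPM in the control library, 20.1 in hypoxia, 3.45 in glucose depletion, 2.42 in glutamine depletion, 0.773 in ER stress, 2.51 in oxidative stress and 5.76 in osmotic stress. It rose in hypoxia (3.33), osmotic stress (1.68) and glucose depletion (1.08), yet was at most 0.849% of the aldolase total. Eno2, the neuronal enolase, was at 30.4 TPM in the control library, 22.6 in hypoxia, 13.6 in glucose depletion, 12.95 in glutamine depletion, 15.4 in ER stress, 35.9 in oxidative stress and 19.8 in osmotic stress. Eno3, the enolase of muscle, was at 10.1 TPM in the control library, 12.4 in hypoxia, 12.3 in glucose depletion, 10.4 in glutamine depletion, 5.25 in ER stress, 14.9 in oxidative stress and 14.8 in osmotic stress. Eno2 fell in glucose depletion (-1.10) and glutamine depletion (-1.17), and its log2 change was -0.94 in ER stress and -0.41 in hypoxia, where Eno1 rose. Ldhb, which favours the use of lactate, was at 47.9 TPM in the control library, 50.2 in hypoxia, 41.3 in glucose depletion, 37.4 in glutamine depletion, 17.5 in ER stress, 45.7 in oxidative stress and 50.4 in osmotic stress. It had a log2 change of 0.07 in hypoxia and fell in ER stress (-1.40). The Ldhb share of lactate dehydrogenase was 6.47% in the control, 2.06% in hypoxia and 3.49% in ER stress, with log2 changes of Ldha of 1.78 in hypoxia and -0.51 in ER stress. Of the 18 genes from hexokinase to lactate dehydrogenase, 14 rose in hypoxia and the 4 that did not were Pfkm, Eno2, Eno3 and Ldhb.

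Lactate leaves the cell through monocarboxylate transporters, and of all steps with several genes the make-up by isozyme moved most here in hypoxia. The transporter of glycolytic cells, Slc16a3, stood in descending order at 391 TPM under hypoxia, 27.4 under glucose depletion, 14.1 under osmotic stress, 13.9 in the control library, 11.1 under oxidative stress, 10.6 under glutamine depletion and 9.06 under ER stress. Its rise of 4.72, from 13.9 to 391 TPM, was the largest of the 40 genes in any condition and the 26th largest of 12909 genes in hypoxia. The second highest library was glucose depletion, with a log2 change of 0.93, short of 2-fold. Slc16a1, the transporter found in most tissues, was at 18.1 TPM in the control library, 23.5 in hypoxia, 20.3 in glucose depletion, 26.2 in glutamine depletion, 52.4 in ER stress, 23.9 in oxidative stress and 21.2 in osmotic stress. It had a log2 change of 0.36 in hypoxia and rose in ER stress (1.49), where the change of Slc16a3 was -0.56. Slc16a3 accordingly made up 43.4% of the pair in the control library, 94.3% in hypoxia, 57.4% in glucose depletion and 14.7% in ER stress. Both genes have an ACGTG core before the start, as printed above.

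**Figure D4:**
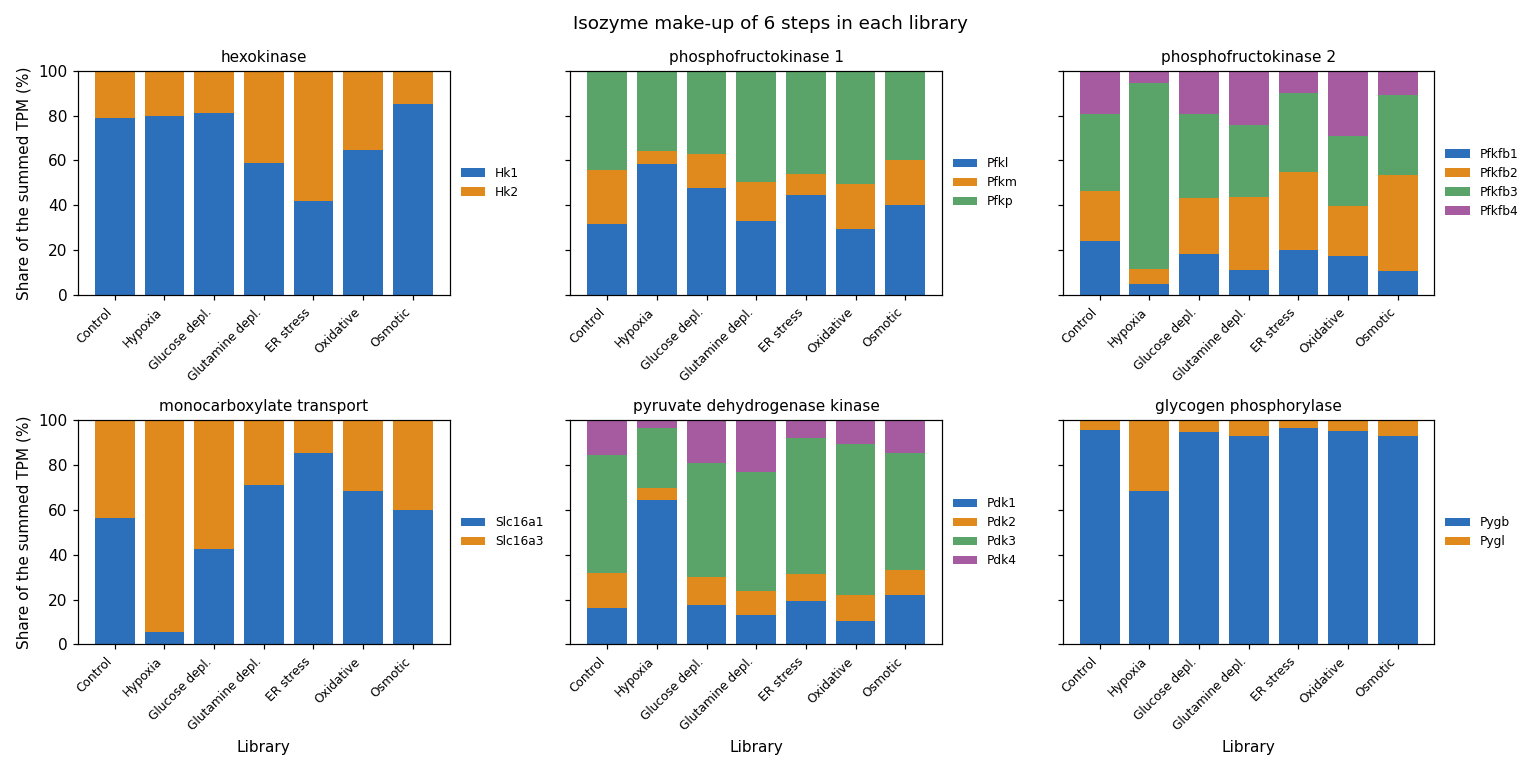
Share of each isozyme in the summed TPM of its step (vertical, percent) in each of the 7 libraries (horizontal) for hexokinase, phosphofructokinase 1, phosphofructokinase 2, monocarboxylate transport, pyruvate dehydrogenase kinase and glycogen phosphorylase, 1 library per bar. Hypoxia differs from the control in 5 of the 6 steps, with 94.3% Slc16a3 and 64.6% Pdk1, while the hexokinase make-up differs most in ER stress, with 57.9% Hk2.

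Pyruvate that is not made into lactate enters the mitochondrion through the carrier of Mpc1 and Mpc2 and is oxidised by pyruvate dehydrogenase, which the kinases Pdk1 to Pdk4 switch off and the phosphatase Pdp1 switches on. In descending order, Pdk1 stood at 152 TPM under hypoxia, 14.5 under osmotic stress, 13.4 under glucose depletion, 13.4 under ER stress, 10.5 in the control library, 7.74 under glutamine depletion and 5.16 under oxidative stress. Its change in hypoxia was 3.74, and the lowest library was oxidative stress, with a change of -0.90. Pdk3 was at 34.03 TPM in the control library, 63.6 in hypoxia, 38.4 in glucose depletion, 30.9 in glutamine depletion, 41.6 in ER stress, 33.2 in oxidative stress and 34.4 in osmotic stress. Pdk2 was at 10.2 TPM in the control library, 11.7 in hypoxia, 9.46 in glucose depletion, 6.18 in glutamine depletion, 8.301 in ER stress, 5.86 in oxidative stress and 7.49 in osmotic stress. Pdk4, known as a gene of fasting and of fat use, was at 10.2 TPM in the control library, 7.77 in hypoxia, 14.4 in glucose depletion, 13.3 in glutamine depletion, 5.598 in ER stress, 5.34 in oxidative stress and 9.73 in osmotic stress. None of these 3 passed 2-fold in any condition, and Pdk3 came nearest with 0.88 in hypoxia. Pdk3 was the most abundant kinase in 6 libraries, with 52.4% of the kinase total in the control, and Pdk1 took 64.6% in hypoxia. The phosphatase gene Pdp1 was at 14.6 TPM in the control library, 16.3 in hypoxia, 16.2 in glucose depletion, 14.7 in glutamine depletion, 14.8 in ER stress, 7.39 in oxidative stress and 4.38 in osmotic stress. It fell in osmotic stress (-1.53) and had a change of -0.89 in oxidative stress, the 2 conditions of 3 h.

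Neither the enzyme itself nor the carrier passed 2-fold anywhere. Pdha1 and Pdhb, the catalytic subunits of the first component, and Mpc1 and Mpc2 had changes between -0.44 (Pdha1, oxidative stress) and 0.75 (Pdhb, ER stress). Pdha1 lay between 119 and 198 TPM, Pdhb between 52.1 and 106, Mpc1 between 59.5 and 77.8 and Mpc2 between 36.9 and 49.4. In hypoxia, where the 9 abundant glycolytic genes were 2.98 times the control, these 4 summed to 0.971 times it.

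The glycogen genes rose in part. Glycogen synthase of non-liver tissues (Gys1) was at 39.1 TPM in the control library, 196 in hypoxia, 45.97 in glucose depletion, 40.1 in glutamine depletion, 89.9 in ER stress, 31.3 in oxidative stress and 30.5 in osmotic stress. The branching enzyme Gbe1 was at 6.98 TPM in the control library, 21.4 in hypoxia, 6.18 in glucose depletion, 6.397 in glutamine depletion, 8.14 in ER stress, 7.59 in oxidative stress and 6.64 in osmotic stress. Ugp2, which makes the UDP-glucose used by the synthase, was at 81.5 TPM in the control library, 111 in hypoxia, 76.7 in glucose depletion, 74.3 in glutamine depletion, 58.6 in ER stress, 89.02 in oxidative stress and 83.3 in osmotic stress. Gys1 rose in hypoxia (2.30) and in ER stress (1.18), Gbe1 rose in hypoxia alone (1.49), and the log2 change of Ugp2 in hypoxia was 0.45. The phosphorylase that breaks down glycogen in liver, Pygl, stood in descending order at 33.5 TPM under hypoxia, 4.02 under osmotic stress, 3.62 under glucose depletion, 3.22 under glutamine depletion, 3.04 in the control library, 2.43 under oxidative stress and 1.03 under ER stress. The phosphorylase first found in brain, Pygb, was at 69.6 TPM in the control library, 73.4 in hypoxia, 67.4 in glucose depletion, 42.4 in glutamine depletion, 28.4 in ER stress, 46.4 in oxidative stress and 51.5 in osmotic stress. Pygl rose in hypoxia (3.10) from a low level, and its share of phosphorylase went from 4.18% to 31.4%, while the log2 change of Pygb there was 0.07. In ER stress Pygb fell (-1.26) and Pygl was just short of 2-fold (-0.99), opposite in direction to Gys1. Genes that build and that break glycogen were therefore both higher in hypoxia. In ER stress, by contrast, the summed phosphorylase level was 29.4 TPM against 72.6 in the control. The sum of Gys1, Gbe1 and Ugp2, which carry out different reactions, was 157 TPM there against 128. Of these genes Gys1 was higher in ER stress (1.18), Gbe1 differed little (0.20) and Ugp2 was lower (-0.47).

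ER stress was the lowest library for 16 of the 40 genes and the highest for 5, beside 23.8% and 33.2% of all genes. The genes that fell in it were Pfkm, Tpi1, Ldhb and Pygb, and those that rose were Hk2, Slc16a1 and Gys1. The summed fibroblast markers were also lowest in ER stress, at 6417 TPM against 14760 in the control, and their part in these falls was not tested. Osmotic stress was the lowest library for 8 of the 40 genes, beside 21.9% of all genes, and glutamine depletion and oxidative stress for 6 each, beside 9.65% and 17.9%.

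Of 74 further genes of glucose, pyruvate and glycogen metabolism, 73 were in the table and 43 averaged 2 TPM or more. In hypoxia 7 of the 43 rose and none fell, beside 3.57% and 2.64% of all genes. Of the 7, Ppp1r3c and Epm2a averaged 2 TPM or more only through the hypoxia library, so the filter on low levels admitted them because they were high there; none of the 40 genes did. The largest rises were those of Ppp1r3b and Ppp1r3c, which bring protein phosphatase to glycogen, and of Pgm2, a phosphoglucomutase. Ppp1r3b was at 3.42 TPM in the control and 32.2 in hypoxia (2.91), Ppp1r3c at 1.39 and 16.6 (2.88), and Pgm2 at 39.7 and 211 (2.38). In ER stress 4 rose and 4 fell, beside 8.60% and 11.0% of all genes, a count near the background. The rises were led by the transporter Slc2a6, from 4.53 to 85.7 TPM (3.97), the glycogen-binding protein Stbd1, from 17.4 to 64.1 (1.82), and the phosphorylase kinase subunit Phkg2, from 24.8 to 75.5 (1.57). The falls were led by another phosphorylase kinase subunit, Phka2 (-1.55), by Pgm5 (-1.52) and by the muscle mutase Pgam2 (-1.03). In ER stress the transcript level of Slc2a6 came near the 99.2 TPM of Slc2a1, and glucose uptake by either was not measured. In oxidative stress 3 fell, beside 4.85% of all genes, namely Ppp1r3f (-1.11), Ppp1r3c (-1.07) and Tigar (-1.01). In osmotic stress Ppp1r3b alone fell, beside 8.76% of all genes (-1.32), and none passed 2-fold in glucose or glutamine depletion. Except for Tigar, at 11.5 TPM in the control, these oxidative and osmotic falls were at low levels. Ppp1r3f went from 4.47 to 1.53 TPM and Ppp1r3b from 3.42 to 0.774. Ppp1r3c went from 1.39 to 0.137 TPM, below 2 TPM in both libraries, and passed the filter only through hypoxia.

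The levels of Gapdh and Pgk1 depend on how reads were divided among near-identical copies. A search of annotated pseudogene transcripts found 207 copies of 14 of the 40 genes at 90% identity or more, of which 176 were copies of Gapdh. The summed level of the Gapdh copies was 849 TPM in the control library and 2053 in hypoxia, between 24.2% and 46.5% of the level given to Gapdh itself. Most of it was in 3 copies: Gm7336 (669.5 TPM in the control and 1198 in hypoxia) and Gm10359 and Gm12671, which held the same value as each other in every library, 60.5 in the control and 363 in hypoxia, and were both near 0 in glutamine depletion. For Pgk1 the copy Gm5537, identical over the aligned stretch, was at 118 and 462 TPM. With the copies added, the change in hypoxia was 1.40 for Gapdh and 2.06 for Pgk1 in place of 1.45 and 2.09. Mpc1-ps, the copy of Mpc1, was at 0 in the control and 20.4 TPM in glucose depletion, and with it the change of Mpc1 there went from -0.17 to 0.23. No gene moved to the other side of 2-fold in any condition when copies were added.

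**Figure D5:**
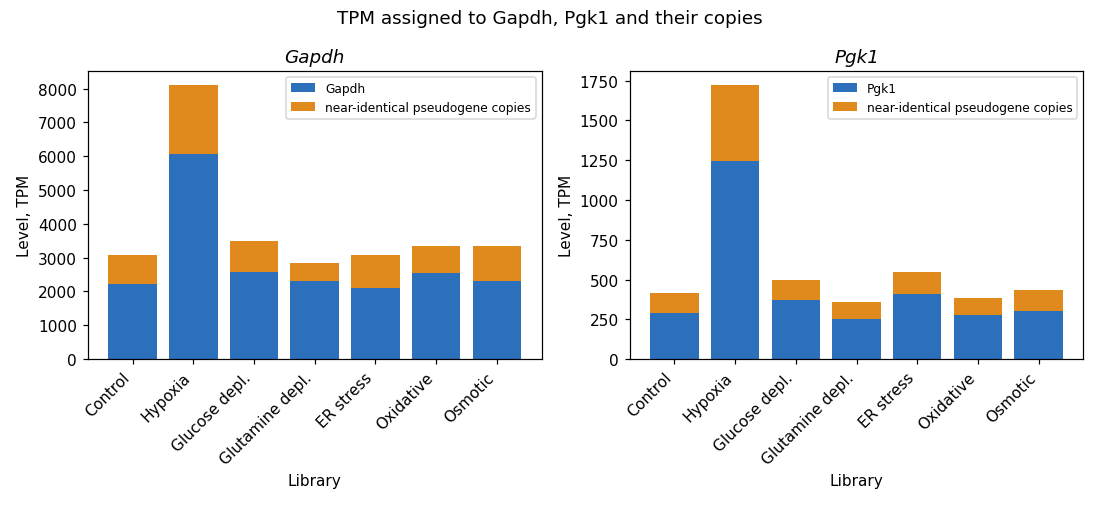
Level in TPM (vertical, linear from 0) assigned to Gapdh (left) and Pgk1 (right) and, stacked on top, to their near-identical pseudogene copies, in each of the 7 libraries (horizontal). The copies add 849 TPM to Gapdh in the control and 2053 in hypoxia, and the hypoxia bar is the tallest with or without them.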

How the data were processed

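The authors made stranded mRNA libraries from the 7 MEF cultures and quantified them with kallisto 0.43.1 at default settings against all cDNA transcripts of GRCm38 (Ensembl release 90). The deposited TPM of a gene is the sum over its transcripts, so isoforms and near-identical copies rest on how kallisto divided shared reads. TPM keeps no read counts, and the depth of each library is unknown. No column of the table was left unmapped. Genes that averaged 2 TPM or more across the libraries entered the comparisons, and changes are differences of log2(TPM + 1) from the control library, with 2-fold as the threshold, as the study used. Each condition was 1 library, so no test was run. The members and gene lists were chosen with earlier results of these data known. All 40 members are accounted for, and of 74 further pathway genes the 3 largest rises and falls past 2-fold in each condition are named (Pygm, on 2 rows of identical values, counted once, and Mpc1l was not analysed here). Gene types and positions are from GENCODE M21 (132 of the kept genes had none), and promoter sequences are from RefSeq. Copies were found with minimap2 2.31 (at least 90% identity over at least 50% of the copy and 200 bases). The calculation, in Python 3.11.15 with pandas 2.3.3 and numpy 2.4.6, was tested on simulated data.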

Additional observations from a re-analysis of the deposited data

How the results depend on the processing

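The count of 22 genes up and none down in hypoxia held within 1.5 times under every alternative tried, and the 22 kept their direction and passed 2-fold wherever they were measured. The median in hypoxia, 1.47, was 1.28 with a pseudocount of 5 TPM, 1.64 with a mean of at least 10 TPM and 1.37 with the median of the other 6 libraries as reference. Removal of the mitochondrially encoded genes, no expression filter and the addition of pseudogene copies (chosen after seeing the data) moved no count or median beyond these tolerances (1.5 times for a count and 0.1 for a median). The small counts outside hypoxia moved. With a pseudocount of 0.1 TPM, glutamine depletion had 2 up and oxidative stress 2 up and 1 down. With 5 TPM, glucose and glutamine depletion had 0 up and 0 down, and osmotic stress 0 up and 1 down. With a mean of at least 10 TPM, glucose depletion had 0 up, glutamine depletion 1 down, and osmotic stress 0 up and 1 down. Centred on the median of all genes, glutamine depletion had 1 down, and the medians in oxidative and osmotic stress were 0.085 and 0.18. At 1.5-fold, glucose depletion had 3 up, glutamine depletion 3 up and 4 down, ER stress 5 up and 11 down, oxidative stress 4 up and 4 down, and osmotic stress 2 up and 6 down. Against the median of the other 6 libraries, glutamine depletion had 0 up and 0 down, ER stress 7 down, oxidative stress 1 down and osmotic stress 0 up, and 7 of the 17 single changes outside hypoxia were short of 2-fold, among them Slc2a1 in oxidative stress (log2 change 0.90). Among protein-coding genes alone the background was 1.93% up and 1.02% down in hypoxia, 0.442% and 0.602% in glucose depletion, 1.89% and 1.86% in glutamine depletion, 1.79% up in oxidative stress and 1.41% up in osmotic stress. With Mpc1-ps added, the Mpc1 share of the carrier was 65.4% under glucose depletion, 63.7% under glutamine depletion, 65% under ER stress and 59.5% under osmotic stress. The cause of these shifts was not tested. No paired analysis was possible because each condition was 1 library, and for the same reason no replicate could be left out. The depth is unknown, so values of a few TPM, such as those of Aldoc, Pfkfb1 and Pygl, carry an unknown counting error.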

Other observations

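Several other genes that surround the pathway were higher in hypoxia without being among the 3 largest rises of the list. Slc37a4, which carries glucose phosphate into the endoplasmic reticulum, was at 7.55 TPM in the control and 20.4 in hypoxia (log2 change 1.32), Epm2a, the glycogen phosphatase laforin, at 1.4999 and 7.61 (1.78; it averaged 2 TPM or more only through the hypoxia library), and Ppp1r3e, another glycogen-targeting subunit, at 10.4 and 23.4 (1.10). Slc16a7, a further monocarboxylate transporter, was at 3.07 and 7.64 (1.09). Its higher level was not particular to hypoxia. Slc16a7 also exceeded its control level after glutamine removal (0.72), added NaCl (0.87), glucose removal (0.95) and arsenite (0.98), each short of 2-fold. With thapsigargin its change was -0.12. Bsg, the chaperone that carries the lactate transporters to the surface, was at 858 and 1655 (0.95), short of 2-fold. The choice of these genes was made with their values in view. The 3 remaining subunit genes of the pyruvate dehydrogenase complex, Dlat, Dld and Pdhx, had log2 changes of -0.38, -0.23 and -0.45 in hypoxia, and Dld rose in ER stress, from 91.5 to 187 TPM (1.03).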
